A study of Sus scrofa with 14 samples.

Results

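Out of 14 arrays of pig endometrium, 3 are described here: replicate 1 of the control gilts at day 13, replicate 3 of the control gilts at day 15, and replicate 2 of the estrogen gilts at day 15. They were chosen from the measured values: each correlated less well with the remaining arrays than did any of the other 11. Their median Pearson correlations with the other 13 arrays, over 16754 probe sets, were 0.860, 0.873 and 0.885 in that order. Just outside the choice lay estrogen day 15 replicate 3 at 0.927, and the highest value was 0.952, on control day 15 replicate 1. Because the same values chose the arrays, every difference between the 3 and the 11 is a description and carries no test.

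The animals were crossbred cyclic gilts of 8 to 10 months, all made pseudopregnant, in which the uterus is under progesterone without embryos. Per the labels, gilts received estrogen, or corn oil as control, when their second estrus began and 24 hours after that. At day 13 or day 15 of pseudopregnancy the uterus was flushed with 20 mL of saline and endometrium was collected, so every group is flushed whole endometrium of unmated animals. The groups were 4 control and 4 estrogen arrays at day 13 and 3 control and 3 estrogen arrays at day 15, and the labels call the replicates biological. Of the 3 arrays 2 are control and 1 is estrogen, so they lie in 3 of the 4 groups and in no arm alone.

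The endometrium of the pig holds a luminal and glandular epithelium, a stroma of fibroblasts with vessels, and resident immune cells. After ovulation, progesterone turns the glands to secretion: proteins such as uteroferrin, retinol-binding protein and protease inhibitors pass into the lumen and feed the conceptus. Days of attachment also bring tight control of plasminogen activators and matrix metalloproteinases, since the pig placenta does not invade the uterine wall.

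Levels are given as log2 of the deposited signal plus 16, so 1 unit is about a doubling of signal for bright probe sets and more than that for dim ones. A level under about 6.35 belongs to the dimmest 30% of probe sets by mean, which were left out of counts. A gene with several probe sets is given by the brightest on average. In whole tissue, fewer cells of a type and less RNA per cell cannot be told apart.

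On the leading principal component, which held 32.9% of all variance, the 3 arrays scored 66.5, 63.2 and 63.3 and the 11 between -29.5 and -3.8. The second, with 14.8%, parted the 3 from each other, with control day 13 replicate 1 at -46.3, estrogen day 15 replicate 2 at -1.1 and control day 15 replicate 3 at 60.5. Estrogen day 15 replicate 2 lay between the others in correlation too: it correlated at 0.924 with control day 13 replicate 1 and at 0.917 with control day 15 replicate 3, while those correlated at 0.868 with each other. Median signals of the 3 arrays were 217, 177 and 197, against 184 to 212 on the 11. The 3′ minus 5′ difference of the GAPDH control probe sets, which grows as RNA is broken or copied short, was 1.99, 1.09 and 1.36 on the 3 arrays, against 1.86 to 2.84 for the rest. For actin it was 1.79, 0.77 and 1.35 against 1.07 to 2.33. Of the 3 arrays 2 thus lay below the 11 for GAPDH and 1 for actin, and none lay above; the part of RNA integrity in the gene differences below was not tested.

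**Figure D1:**
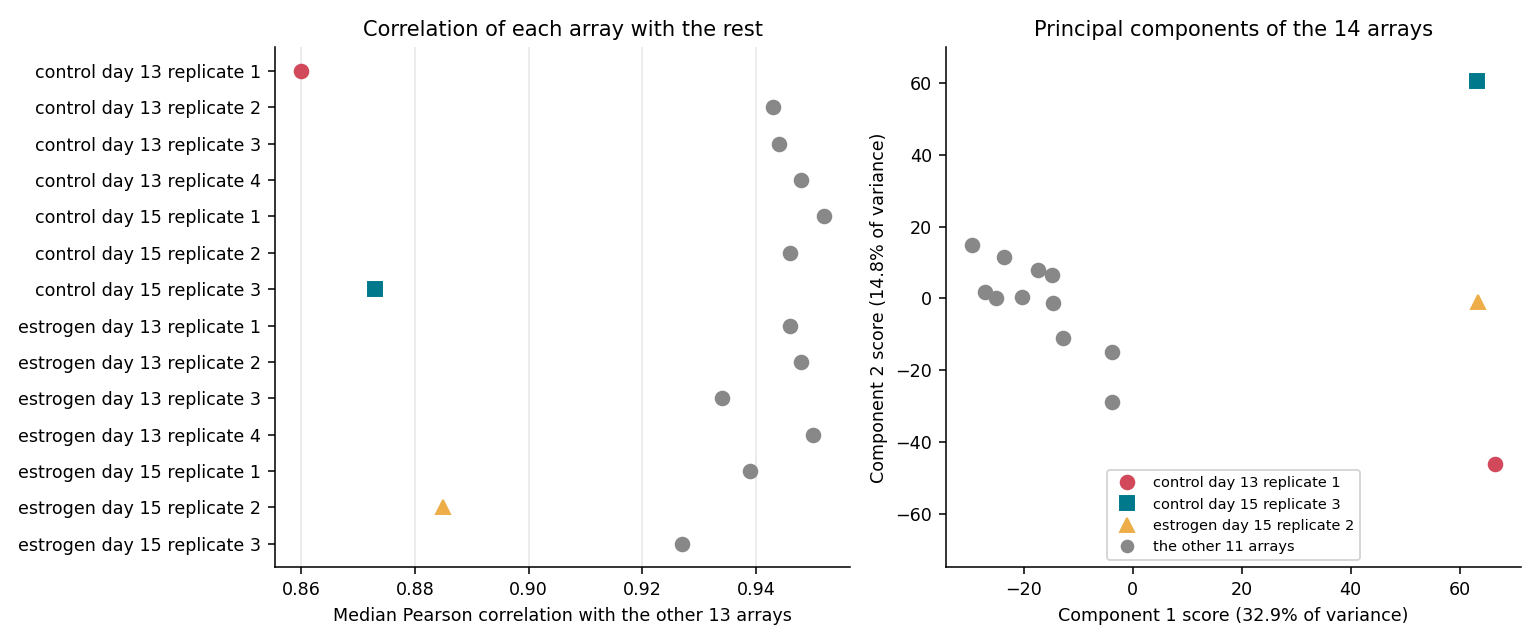
Left, the median Pearson correlation of each array with the other 13 (x axis); right, the scores of the 14 arrays on the first and second principal components. The 3 coloured arrays sit at 0.860 to 0.885, below the 0.927 to 0.952 of the grey ones, and share a first-component score near 65 while the second component spreads them from -46.3 to 60.5.

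The 3 arrays lay above all 11 by at least 1 log2 unit on 50 probe sets (0.298% of those tested) and below all 11 on 83 (0.495%). With 1 probe set per gene these were 23 genes higher and 26 lower. Without control day 13 replicate 1 the higher count was 91, and without control day 15 replicate 3 the counts were 106 and 146, since fewer arrays then had to lie together. Over 5785 named genes, 618 lay above all 11 at any distance (10.7%) and 305 below (5.27%), and these shares are the ground against which the gene groups below are read.

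Proteases and proteoglycans of the matrix and cell surface were among the genes higher on all 3 arrays. PLAT, tissue plasminogen activator, which turns plasminogen into plasmin, had 13.68, 13.37 and 12.76 on the 3 arrays and a lowest, median and highest level of 8.84, 9.27 and 9.83 on the 11. The means differed 16-fold, and 2.93 log2 units parted the lowest of the 3 from the highest of the 11. MMP7, matrilysin, a metalloproteinase made by epithelium, had 12.31, 12.47 and 14.20 against 4.88, 6.99 and 9.40. Its difference of 6.06 (66.6-fold) was the widest of the 30 genes named for all 3 arrays, and of those 30 it also varied most among the 11 (SD 1.39). The MMP7 levels of 4 of the 11 arrays, all of day 13, lie under 6.35, so the fold depends on background and pseudocount.

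FAP, a serine protease of activated fibroblasts, had 9.37, 10.41 and 9.88 against 6.15, 7.27 and 7.61. VCAN, the large matrix proteoglycan versican, had 11.32, 10.56 and 11.46 against 7.12, 7.86 and 8.48, a 9.87-fold difference, and its other tested probe set lay apart in the same direction by 3.28. The syndecans SDC1 and SDC2, heparan sulfate proteoglycans of the cell surface, were also among the higher genes. SDC1 had 10.52, 10.04 and 9.26 against 7.03, 7.31 and 7.79. Its other tested probe set differed by 1.01, and 2 under the filter by 3.08 and -0.10. SDC2 had 10.67, 10.83 and 10.20 against 8.04, 8.35 and 8.72, and its other probe set differed by 1.68.

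Further higher genes have roles in the nucleolus, in nucleic acids, in proline synthesis and in growth. NPM3, a nucleolar chaperone of the nucleophosmin family, had 10.25, 11.13 and 10.95 against 6.91, 7.43 and 8.44. APEX1, the endonuclease of base excision repair, had 11.42, 11.59 and 11.96 against 8.26, 9.21 and 9.70, and REXO2, an oligoribonuclease, had 11.27, 11.50 and 11.47 against a median of 9.53 and a highest of 9.90. REXO2 was thus nearly level across the 3. PYCR1, which makes proline, had 9.11, 9.23 and 8.71 against 6.83, 7.48 and 7.56. MYC, the growth-promoting transcription factor, which belongs to a list and not to the 30, had 11.24, 11.99 and 11.17 against 7.67, 8.51 and 10.02, a difference of 2.85.

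The remaining genes of the 15 higher ones are a mixed set. HSD11B1, which regenerates active glucocorticoid, had 12.08, 10.86 and 11.23 against 8.53, 8.90 and 9.19, and varied little among the 11 (SD 0.17). SLC4A4, a sodium bicarbonate cotransporter, had 8.60, 9.24 and 9.26 against 4.97, 6.76 and 7.20. Its other probe set, under the filter, overlapped with the 11 (5.58, 5.49 and 6.07 against 4.18 to 6.71). MAP2, a microtubule-associated protein best known from neurons, had 9.91, 8.99 and 8.22 against 6.28, 6.64 and 7.02, and its other probe set differed by 2.93. CKAP4, a membrane protein of the endoplasmic reticulum, and CMSS1 closed the set, with differences of 1.67 and 1.85.

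Genes lower on all 3 arrays included several secreted signals and their antagonists. DKK1, a secreted inhibitor of WNT signalling, had 4.90, 4.57 and 4.87 on the 3 arrays and a lowest, median and highest level of 7.35, 9.14 and 10.07 on the 11. It was dim on all 3 and well above the filter level on every array of the 11. FGF7, keratinocyte growth factor, which the pig endometrium secretes toward the conceptus, had 7.64, 8.47 and 5.81 against 9.86, 10.36 and 11.04. Its other tested probe set differed by -1.06 but overlapped with the 11 (6.67, 6.84 and 5.99 against 6.33 to 8.02). FST, follistatin, which binds activin, had 6.71, 7.35 and 7.63 against 9.02, 9.35 and 10.27, and its other probe set differed by -1.58. PTN, the heparin-binding growth factor pleiotrophin, had 7.86, 9.67 and 9.10 against 11.51, 11.89 and 12.08, and varied little among the 11 (SD 0.17).

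Transport, secretion and metabolism made up most of the rest. SLC39A2, which carries zinc into cells, had 10.33, 9.45 and 11.55 against 12.88, 13.68 and 14.21, an 8.65-fold difference in a gene that was bright on all 14 arrays. SERPINB7, a serine protease inhibitor, had 8.04, 8.59 and 6.37 against 10.58, 12.65 and 13.25, a 25.2-fold difference and the largest of the 15 lower genes. PPARGC1A, the coactivator that drives mitochondrial biogenesis, had 7.70, 7.46 and 6.63 against 9.97, 10.41 and 11.27. In each of these genes the 3 arrays lay at least 1.34 below the lowest of the 11.

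FXYD2, a regulatory subunit of the sodium pump, had 6.22, 6.74 and 6.19 against 8.43, 9.15 and 10.22. RAB27B, a GTPase of vesicle release, had 6.91, 7.47 and 7.30 against 9.13, 9.80 and 11.17. CYP7A1, the rate-limiting enzyme of bile acid synthesis, had 6.07, 6.05 and 6.57 against 8.06, 9.18 and 9.64. GNMT, FMO1 and CRYZ, enzymes of methyl-group, drug and quinone metabolism, differed by -3.29, -2.40 and -1.98, and CLIP4 by -3.31. NANOS1, an RNA-binding repressor of translation, differed by -4.12 on its brightest probe set and by 0.10 on its other one, so its direction is unsure.

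**Figure D2:**
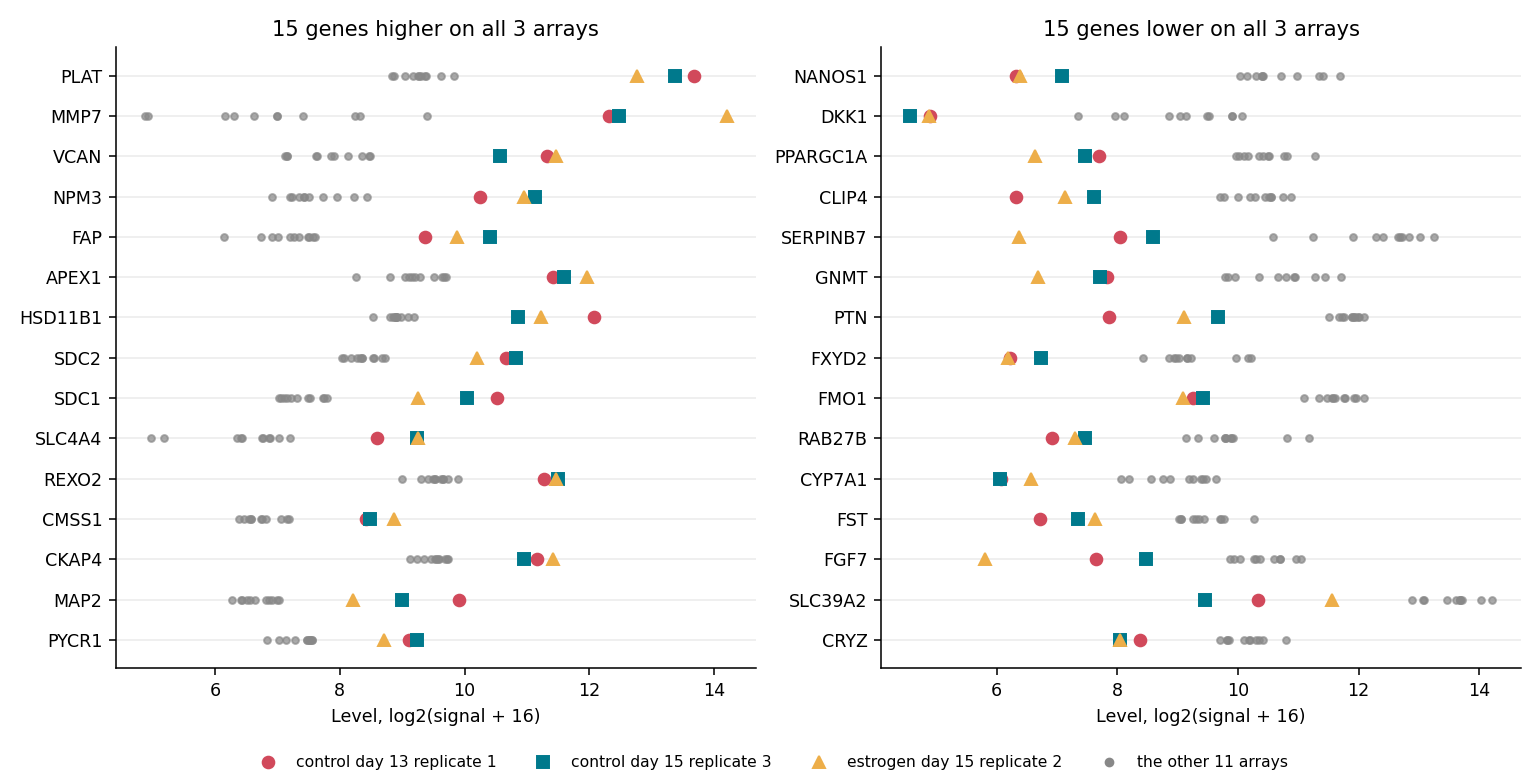
Level of the 15 higher (left) and 15 lower genes (right) with the widest gap between the 3 arrays and the 11; each point is 1 array and the x axis is log2(signal + 16). The coloured points of each gene lie beyond every grey point, from PLAT (12.76 or more against 9.83 or less) to CRYZ (8.37 or less against 9.70 or more).

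Epithelial, smooth muscle and endothelial markers of the 3 arrays mostly overlapped with the 11; neighbouring tissues of the tract share these markers. Of 15 epithelial markers 0 lay above all 11 and 1 below, OCLN of the tight junction, at 11.16, 11.38 and 11.27 against 11.48 to 12.15, and the median difference was -0.01. Of 8 smooth muscle markers and 8 endothelial markers 0 lay apart in either direction. These lists, together with cytosolic ribosomal proteins (0 of 34 apart, median 0.02) and oxidative phosphorylation (1 of 20 below, NDUFA1, median 0.08), sit close to the median of 0.09 over all tested genes.

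Stromal fibroblast markers lay above all 11 in 3 of 10 and below in 0. These were VIM, the intermediate filament of mesenchymal cells (14.05, 14.08 and 13.88 against 13.01 to 13.87), PDGFRB, a receptor of fibroblasts and pericytes (10.43, 10.79 and 10.34 against 9.65 to 10.04), and FBLN1, a matrix protein (12.76, 12.36 and 12.15 against 9.76 to 11.38). The collagens COL1A2 and COL3A1 and the proteoglycans DCN and LUM, abundant stromal products, overlapped with the 11. Of 19 collagen and matrix genes 4 lay above all 11, COL5A1, COL15A1, FBN1 and VCAN, with a median difference of 0.36 for the list.

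Markers of tissues next to the uterus or of other cells were mostly dim. No tested marker of oviduct, mesothelium, squamous epithelium, adipose tissue, conceptus trophoblast or corpus luteum lay apart from the 11 on all 3 arrays. Only 1 marker was tested for each of these tissues, and 3 for corpus luteum. Some left the range of the 11 on fewer arrays, given here as differences from the mean of the 11. WT1 of mesothelium had 1.03, 0.98 and 0.02 against -0.33 to 0.22. KRT10 of squamous epithelium had 0.35, 0.2 and 0.95 against -0.4 to 0.36. LPL of adipose tissue had -2.63, -1.21 and -1.26 against -1.36 to 0.76. The trophoblast marker and the corpus luteum mean stayed inside the range. All 6 skeletal muscle genes on the array fell under the filter. OVGP1, the oviductal glycoprotein, had 10.37 on control day 13 replicate 1, 6.96 and 7.09 on the other two and 5.13 to 7.49 on the 11, so it was high on 1 array only. Ciliated epithelium markers split the 3: their mean difference from the 11 was 0.28 on control day 13 replicate 1, -0.86 on control day 15 replicate 3 and -0.57 on estrogen day 15 replicate 2, against -0.26 to 0.47 among the 11. S100A9, the only neutrophil marker above the filter, had 5.65, 10.19 and 8.81 against 4.64 to 10.52, and differed from the own group by -2.98, 3.81 and 2.27. Of the neutrophil markers under the filter, S100A12 had 4.20, 8.41 and 7.45 against 4.43 to 7.29, so both day 15 arrays lay above the 11 for it. S100A8, ELANE and PGLYRP1 overlapped with the 11. The part of these cells in the gene differences was not tested.

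Genes known to respond to progesterone were lower as a group. Of 11 tested members 4 lay below all 11 arrays and 0 above, and the median difference was -0.90. HSD17B2, which inactivates estradiol in secretory endometrium, had 6.42, 8.77 and 6.38 against 9.09 to 12.14. FKBP5, a chaperone of steroid receptors, had 8.31, 8.70 and 9.48 against 9.82 to 11.55, KLF9, a partner of the progesterone receptor, 10.14, 9.56 and 9.78 against 10.71 to 12.03, and PGRMC1, a membrane protein tied to progesterone action, 11.60, 12.90 and 12.44 against 13.26 to 14.13. IHH, the epithelial hedgehog ligand induced by progesterone, overlapped with the 11 (7.79, 7.45 and 7.64 against 6.56 to 8.11).

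The steroid receptors split the 3 arrays. PGR, the progesterone receptor, had 11.32 on control day 13 replicate 1, 9.94 on estrogen day 15 replicate 2 and 8.71 on control day 15 replicate 3, against 8.70 to 9.76 on the 11. Control day 13 replicate 1 and estrogen day 15 replicate 2 thus lay above the 11, while control day 15 replicate 3 sat at their lower edge. ESR1, the estrogen receptor, had 9.88, 8.77 and 8.83 against 8.10 to 9.28, high on control day 13 replicate 1 alone. STC1, stanniocalcin, a secreted gland hormone, was lower on all 3 (9.50, 7.46 and 6.99 against 10.15 to 14.16), as was MT1A, a zinc-binding metallothionein, on 2 of them (9.80, 10.33 and 12.17 against 11.43 to 14.52).

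Among lists with at least 6 tested genes, the plasminogen system had the largest share above the 11: 4 of 9 tested members lay above all of them and 0 below, with a median difference of 1.01. Beside PLAT these were PLAU, urokinase (10.63, 10.98 and 9.76 against 8.15 to 9.44), and ANXA2 and S100A10, which together bind plasminogen activator at the cell surface. PLAT was a marker given along with the arrays, so the share and rank of this list rest in part on a gene chosen beforehand. S100A10 had 12.08, 13.46 and 12.70 against 10.52 to 11.62, and ANXA2 13.65, 13.83 and 13.62 against 12.55 to 13.35. Of 11 metalloproteinases and inhibitors, MMP7 and TIMP1, a tissue inhibitor of metalloproteinases, lay above all 11. TIMP1 had 10.92, 12.66 and 12.40 against 9.71 to 10.86.

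Glycolysis and protein folding gave smaller differences. Of 17 hypoxia and glycolysis genes 6 lay above all 11 and 0 below, with a median of 0.37. They were glycolytic enzymes, GPI, PFKL, TPI1, PGK1, ENO1 and LDHA, and LDHA, lactate dehydrogenase, had 11.42, 12.59 and 11.54 against 10.20 to 11.06. VEGFA and CA9, textbook targets of hypoxia, overlapped with the 11. Of 19 endoplasmic reticulum chaperones 5 lay above all 11, HSP90B1, PDIA3, PDIA4, PDIA6 and DNAJB11, and 2 below, the stress transcription factors XBP1 and DDIT3. The XBP1 levels were 12.58, 12.50 and 12.57 against 12.74 to 13.04, a small step with no overlap.

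A few junction and transport genes lay apart, in both directions. CLDN10, a claudin of ion-selective tight junctions, had 12.29, 13.32 and 13.13 against 10.08 to 11.66, and GJA1, connexin 43, 13.01, 12.64 and 13.17 against 10.90 to 11.93, both above all 11. SLC5A1, the sodium glucose cotransporter, had 7.55, 8.15 and 8.72 against 8.83 to 11.07, and SCNN1A, a subunit of the epithelial sodium channel, 6.19, 6.87 and 6.13 against 6.96 to 8.29, both below. Of 19 integrins, mucins and junction proteins 2 lay above all 11 and 2 below, the share above being near that of all genes. Of 21 sugar, amino acid and ion transport genes 1 lay above all 11 and 4 below. Over all tested genes 10.7% lay above and 5.27% below. Growth factors and binding proteins had 0 of 19 above and 3 below, FGF7, FST and IGF1R, the receptor of insulin-like growth factor 1.

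**Figure D3:**
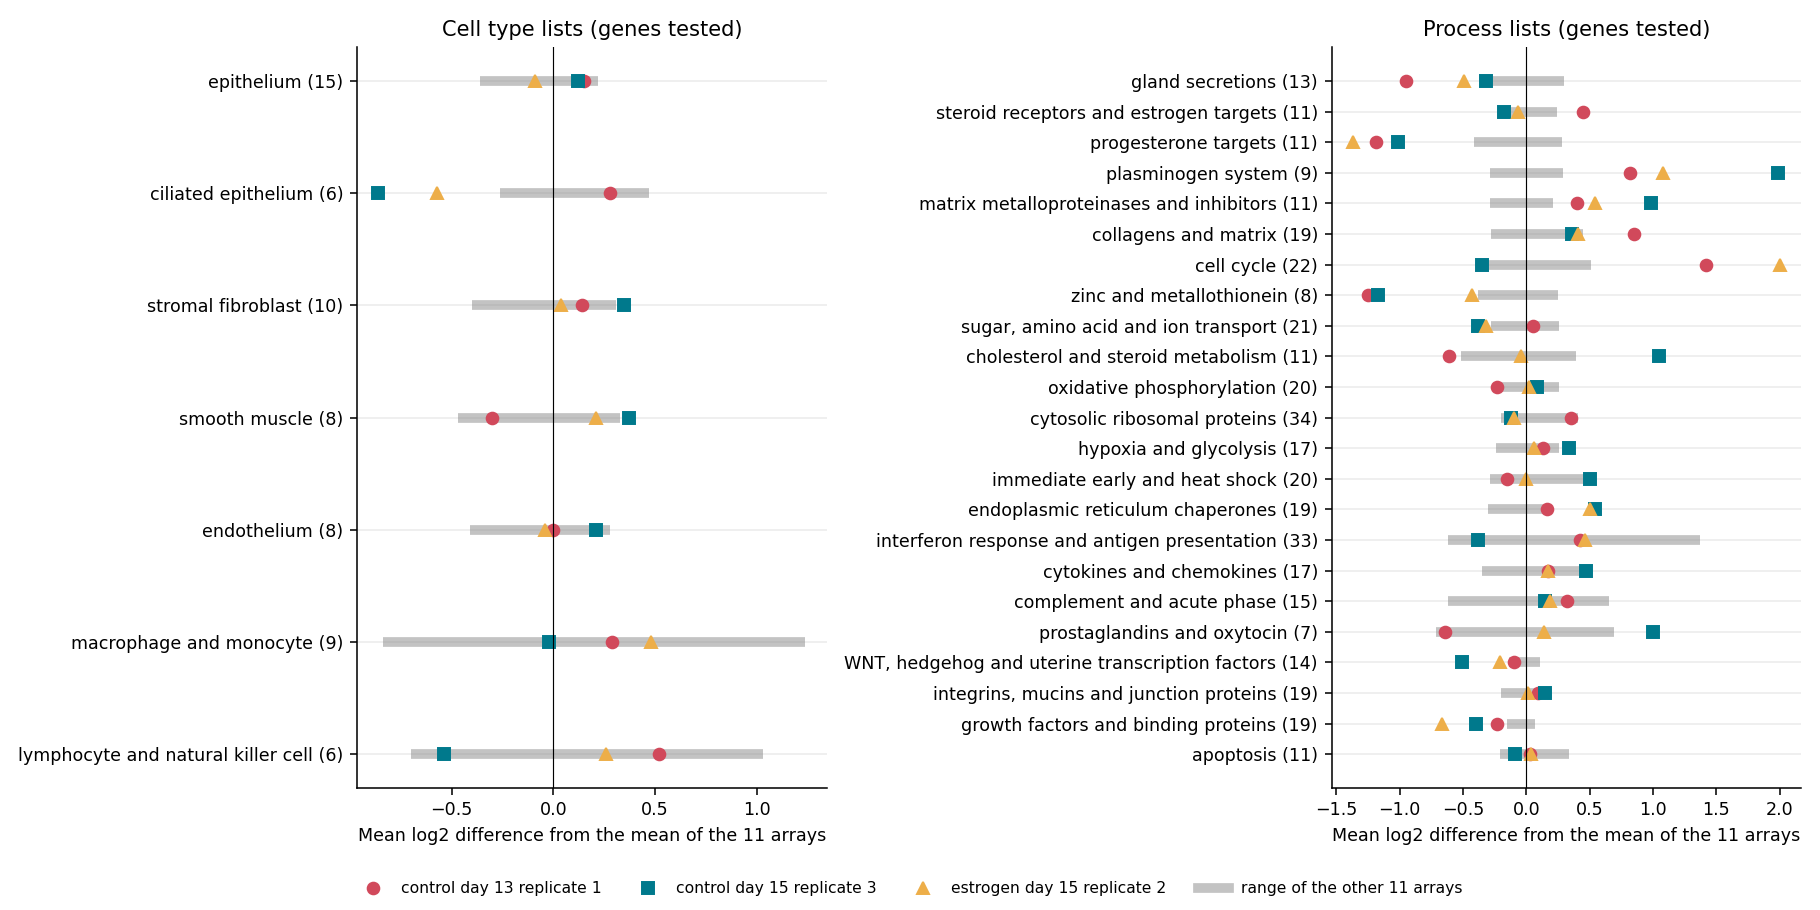
Mean log2 difference from the mean of the 11 arrays over the genes of each list with at least 6 tested genes, for cell type lists (left) and process lists (right); coloured points are the 3 arrays and grey bars the range of the other 11. Progesterone targets (-1.19, -1.01 and -1.37) and the plasminogen system (0.82, 1.99 and 1.08) hold all 3 arrays outside the grey range on 1 side, while the cell cycle list splits them at 1.42, -0.35 and 2.00.

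Set against the remaining arrays of its own group, each of the 3 can be compared without sharing a reference array. An array was counted apart on a probe set if it lay outside the range of its group mates and at least 1 log2 unit from their mean, with the 3 arrays kept out of the mates. Control day 13 replicate 1 was higher on 1455 probe sets (8.68%) and lower on 1278 (7.63%), control day 15 replicate 3 higher on 1117 (6.67%) and lower on 1814 (10.8%), and estrogen day 15 replicate 2 higher on 977 (5.83%) and lower on 1134 (6.77%). In both directions together these were 2733, 2931 and 2111, against 247 to 945 for the other 11 arrays. The number of mates ranged from 1 to 3, and a range over fewer mates is easier to leave. For estrogen day 15 replicate 2 the total was 3204 with no filter on dim probe sets.

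On all 3 arrays at once, 176 probe sets were higher than the group mates and 292 lower. In the order used above, the 176 were 12.1%, 15.8% and 18.0% of each array's higher probe sets, and the 292 were 22.8%, 16.1% and 25.7% of their lower ones. Across the 16754 probe sets, which are not independent replicates, the differences from the group mates correlated at a Pearson r of 0.35 between the 2 control arrays, 0.45 between control day 13 replicate 1 and estrogen day 15 replicate 2, and 0.51 between the day 15 arrays. Opposite calls were fewer: between the 2 control arrays 124 probe sets were higher on day 13 replicate 1 and lower on day 15 replicate 3, and 60 the reverse, against 372 higher and 493 lower on both. PLAT was 4.65, 3.88 and 3.21 above its group mates on the 3 arrays, and SLC39A2 differed from its mates by -3.51, -4.24 and -2.20.

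**Figure D4:**
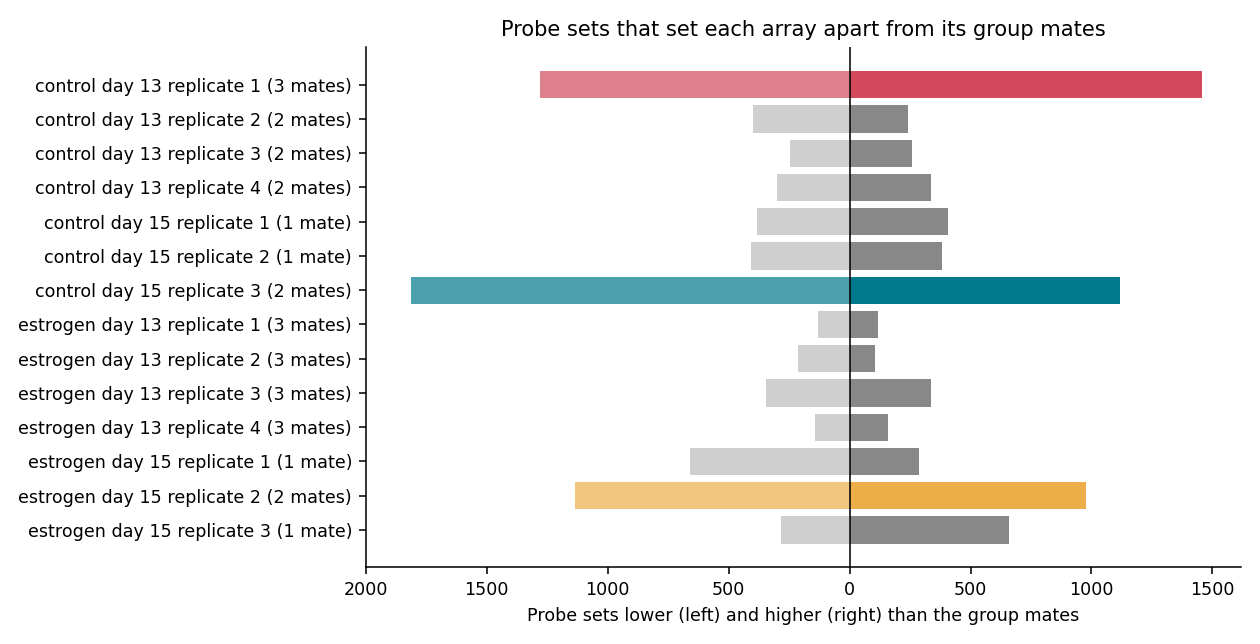
Number of probe sets on which each array lay outside the range of its group mates and 1 or more log2 from their mean, lower to the left of 0 and higher to the right; the 3 arrays were kept out of the mates and are coloured. Their bars reach 977 to 1814 on each side, and those of the other 11 arrays 105 to 660.

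Cell cycle genes differed among the 3. Against its own group, control day 13 replicate 1 was higher for 16 of 22 and estrogen day 15 replicate 2 for 16 of 22, with 0 lower on either, while control day 15 replicate 3 was higher for 0 and lower for 3. The shares over all tested genes were 10.5% higher for control day 13 replicate 1, 6.19% higher for estrogen day 15 replicate 2 and 8.35% higher and 7.88% lower for control day 15 replicate 3. TOP2A, the topoisomerase of dividing cells, had 9.47 and 10.62 on the first pair and 6.09 on control day 15 replicate 3, against 5.48 to 8.41 on the 11. CENPF, a kinetochore protein, had 9.57, 5.84 and 9.93 (day 13 control, day 15 control, day 15 estrogen) against 5.79 to 8.55, and BIRC5, survivin, 8.89, 6.63 and 9.44 against 6.31 to 7.82. PCNA, the sliding clamp of DNA replication, was the 1 member above all 11 on each of the 3 arrays, at 10.21, 9.89 and 10.90 against 8.68 to 9.38.

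Control day 13 replicate 1 had 45 genes at least 1 log2 unit above the highest of the other 13 arrays and 45 below the lowest; the 11 arrays had 0 to 8 above and 0 to 6 below. The lower genes included products that were bright on every other array. MEP1B, the brush-border metalloprotease meprin beta, was 6.40 there and 13.49 to 14.83 on the other 13 arrays, and its other 2 tested probe sets were low on the same array (5.58 and 4.38). SULT2A1, a steroid sulfotransferase, was 7.42 against 12.70 to 14.46, SOD3, extracellular superoxide dismutase, 6.34 against 11.51 to 13.27, and GPX3, the secreted glutathione peroxidase, 6.98 against 9.83 to 12.37. MEP1B and SOD3 were thus at about the filter level on this array, while the other 2 of the 3 kept levels of 11.79 or more.

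Some uterine secretions were lower there and others not. UABP-2, a basic protein that associates with uteroferrin, was 8.24 against 11.90 to 14.48. ACP5, uteroferrin itself, was 11.40 against 13.86 to 15.20 on the 11, RBP4, retinol-binding protein, 12.26 against 14.09 to 15.15, and TIMP2 11.53 against 13.76 to 14.70. Control day 15 replicate 3 (14.29, 14.19 and 14.07) and estrogen day 15 replicate 2 (14.13, 13.91 and 13.94) lay within the range of the 11 or within 0.2 of it for these 3 genes. Against its own group, control day 13 replicate 1 was lower for 5 of 13 gland secretions and higher for 2, with a median of -0.15 (over all tested genes 6.91% were lower and 10.5% higher). The higher ones were SLPI, a secreted protease inhibitor (2.34 above its mates), and SPP1, osteopontin (1.35 above). Of 11 steroid receptors and estrogen targets it was higher for 5 and lower for 2, IGF1 (-1.67) and TFF1 (-1.04).

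The genes highest on control day 13 replicate 1 have unlike roles. Beside OVGP1, SLC34A2, a sodium phosphate cotransporter, was 13.09 there, 10.50 on estrogen day 15 replicate 2 and 6.11 to 8.59 on the 11. PEG10, an imprinted gene, was 11.03 against 6.09 to 8.25 on the other 13, but 2 further probe sets of it, both under the filter, showed 4.53 and 4.62 on this array. HTRA4, a serine protease, was 11.27 against 6.74 to 8.61, SPATS2L 11.49 against 8.76 to 9.66 (with estrogen day 15 replicate 2 next, above the 11, for both), and TAC3, the precursor of neurokinin B, 10.15 against 6.84 to 8.36.

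Control day 15 replicate 3 had 44 genes above and 52 below the other 13 arrays by at least 1. The higher ones included a cytokine, a transcription factor and a protease inhibitor. LIF, leukemia inhibitory factor, a cytokine of implantation, was 11.71 there against 6.73 to 8.92 on the other 13. SERPINB2, plasminogen activator inhibitor 2, was 10.56 against 5.28 to 8.02, and FOSL1, an AP-1 transcription factor, 9.51 against 5.92 to 7.41. PTGS2, the inducible cyclooxygenase, was 12.02 against 8.65 to 10.57 on the 11, HBEGF, an EGF-family ligand, 9.35 (7.74 on control day 13 replicate 1) against 5.70 to 7.47, and OXTR, the oxytocin receptor, 8.01 against 5.82 to 7.16. LONRF3 was 10.31 against 7.77 to 8.40 on the other 13. THBS1, thrombospondin 1, and PAQR8, a membrane progestin receptor, were highest on this array but lay above the 11 on all 3. THBS1 had 9.80, 12.18 and 10.18 against 7.78 to 8.74, and PAQR8 9.39, 11.09 and 9.39 against 7.54 to 8.96. Another tested THBS1 probe set also lay above the 11 on all 3 (7.51, 11.51 and 7.26 against 5.14 to 7.21). A further tested probe set of THBS1 did so on control day 15 replicate 3 alone (6.95, 8.38 and 7.05 against 6.22 to 8.10).

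The genes lowest on control day 15 replicate 3 included carriers and a receptor. AQP3, an aquaporin, was 7.96 there against 9.87 to 13.63, SLC15A2, a peptide transporter, 7.13 against 9.71 to 10.98, and LPAR3, a lysophosphatidic acid receptor needed for implantation in mice, 5.90 against 8.36 to 10.70. The other probe sets of SLC15A2 and LPAR3 were low on the same array. C9H11orf52 was 4.50 against 6.54 to 7.43. For 2 further genes all 3 arrays lay below the 11, with this array lowest. DDO, D-aspartate oxidase, had 7.11, 4.16 and 7.88 against 8.27 to 9.08, and CCNG2, a cyclin of arrested cells, 10.43, 8.40 and 10.62 against 10.95 to 11.91. Sterol synthesis differed too. Against its group mates control day 15 replicate 3 was higher for 5 of 11 cholesterol and steroid genes and lower for 0. Over all tested genes 8.35% were higher and 7.88% lower on this array. Control day 13 replicate 1 and estrogen day 15 replicate 2 were higher for 0 and lower for 2 and 1. HMGCS1, an early enzyme of the mevalonate pathway, had 9.33, 11.41 and 10.43 against 8.92 to 10.41, and CYP51, which demethylates lanosterol, 10.55, 12.95 and 11.37 against 10.39 to 11.67. Plasminogen system genes also went furthest here, with 7 of 9 higher than the group mates and 0 lower. Control day 13 replicate 1 and estrogen day 15 replicate 2 were higher for 4 and 3 of 9, and lower for 1 each. Over all tested genes 10.5% and 6.19% were higher on those arrays.

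Estrogen day 15 replicate 2 had fewer genes of its own, 11 above and 14 below the other 13 arrays by at least 1. MMP7 was highest there (14.20), and so were 2 genes of mitosis, UBE2C, a ubiquitin-conjugating enzyme (9.86 against 5.64 to 8.49), and CCNB1, cyclin B1 (10.82 against 6.38 to 9.65). In both of these the next array was control day 13 replicate 1. CES1, a carboxylesterase, was 11.82 against 7.40 to 10.47, LOC100158115 13.18 against 8.48 to 11.66, and ARMT1 9.73 against 7.37 to 8.46.

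The genes low on estrogen day 15 replicate 2 often continued a difference shared by all 3. FGF7 (5.81) and SERPINB7 (6.37) were lowest there, with control day 13 replicate 1 next at 7.64 and 8.04. PHYH, a peroxisomal enzyme of fatty acid breakdown, had 11.91, 12.50 and 9.68 against 12.72 to 13.62 on the 11, below on all 3, and ID2, an inhibitor of differentiation factors, was 6.87 against 8.54 to 10.85 on the other 13. ADM, the vasodilator adrenomedullin, was 8.86 against 10.12 to 11.82, and VWA1 5.14 against 6.55 to 7.44. Progesterone targets went furthest on this array: 8 of 11 were lower than its group mates, against 4 of 11 on control day 13 replicate 1 and 5 of 11 on control day 15 replicate 3, where 5.98%, 6.91% and 7.88% of all tested genes were lower.

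**Figure D5:**
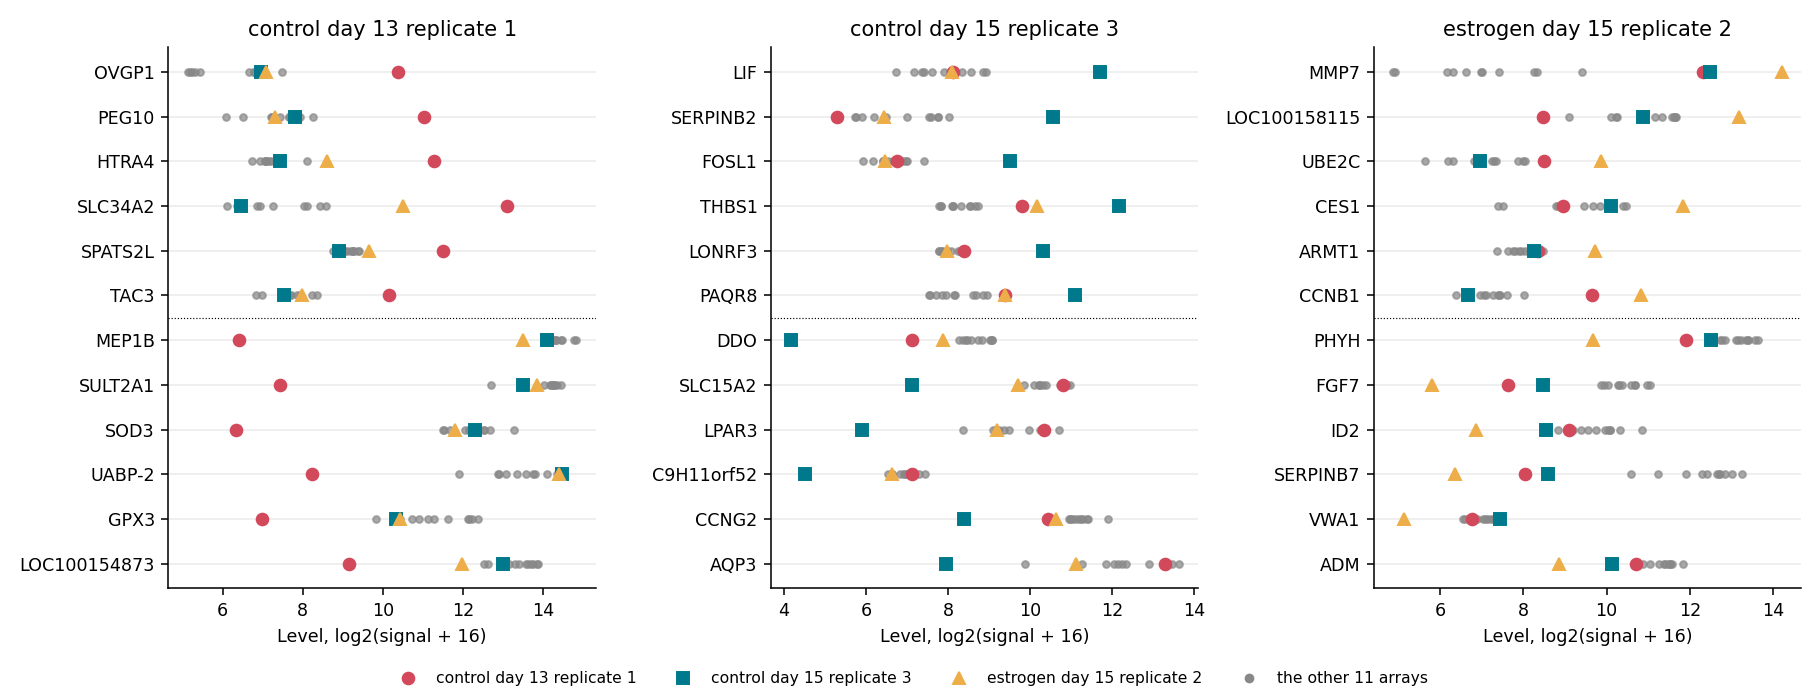
Level, log2(signal + 16), of the 6 higher (above the dotted line) and 6 lower genes with the widest gap between 1 array and the other 13, a panel for each of the 3 arrays; each point is 1 array. MEP1B shows the widest gap, with 6.40 on control day 13 replicate 1 and at least 13.49 elsewhere, and in the right panel the array next to estrogen day 15 replicate 2 is often another of the 3.

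The study's design compares the days within each treatment and estrogen with control within each day, and the 3 arrays lie in 3 of these 4 groups. With all 14 arrays limma called 0 of 16754 probe sets (0%) in each of the 4 comparisons at an adjusted p under 0.05. The counts at an unadjusted p under 0.05 were 656 for the days in control gilts, 1443 for the days in estrogen gilts, 485 for estrogen at day 13 and 642 for estrogen at day 15. Without the 3 arrays, 221 probe sets (1.32%) passed for the days in estrogen gilts, and 0 in the other 3 comparisons, with 857, 1112 and 1394 at an unadjusted p under 0.05. Array weights, in which limma gives less weight to arrays that fit poorly, called 168 for the days in estrogen gilts, and leaving out control day 13 replicate 1 alone called 44. For the days averaged over both treatments 1 probe set passed with all arrays (0.00597%), of MRC1, the mannose receptor of macrophages, and 165 without the 3 (0.985%). The call on MRC1 was lost with the replicate number as a block (lowest limma adjusted p = 0.147). It was also lost without control day 13 replicate 2 or 4, estrogen day 13 replicate 3 or estrogen day 15 replicate 1 (lowest limma adjusted p from 0.05 to 0.0561).

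Among the 11 arrays left by the choice, most of the 50 and 83 probe sets were not called between the days. The shares called were above those of all tested probe sets but rest on 1 or 2 calls each. Averaged over treatments, limma called 2 of the 50 (4%) as higher at day 15, where 0.728% of all tested were called higher. It called 2 of the 83 (2.41%) as lower, where 0.257% were called lower. In estrogen gilts it called 1 of the 50 (2%) as higher, against 0.776% of all, and 2 of the 83 (2.41%) as lower, against 0.543%. MMP7 was 2.30 ± 0.37 (SE) higher at day 15 than at day 13 in those 11 arrays (limma adjusted p = 0.0115). MYC was 1.26 ± 0.21 higher (adjusted p = 0.0166). With all 14 arrays the MMP7 difference was 3.11 ± 1.24 (adjusted p = 0.503). PLAT differed by 0.41 ± 0.15 in the 11 arrays (adjusted p = 0.247) and SLC39A2 by 0.21 ± 0.18 (adjusted p = 0.622), neither past the threshold. These fits leave 2 control and 2 estrogen arrays at day 15, whose spread is pooled with that of day 13. The choice that left the 11 used these same values and can narrow their spread. Without the 3 arrays, p-values can therefore be too low and counts of called probe sets too high.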

How the data were processed

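Endometrial RNA, labelled with biotin per the labels' protocols, was hybridised to an Affymetrix porcine array, 1 array for each of 14 samples. The authors deposited linear signal intensities, already scaled: every array has a 2% trimmed mean of 500.1. The software, summary method and detection calls are not given in the sources used here. Arrays give no counts; their number limits precision.

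From 24123 probe sets, 188 control probe sets were left out. Intensities were taken as log2(signal + 16), and the dimmest 30% by mean were dropped, which left 16754 (7965 with 1 gene symbol, for 5785 genes). Symbols came from the platform annotation, updated through gene identifiers to the RefSeq Sscrofa11.1 table: 10099 probe sets had 1 symbol (9989 matched), 198 several and 13826 none.

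The 3 arrays were described against the 11 and against their own groups with Python 3.11.15, numpy 2.4.6, pandas 2.3.3 and matplotlib 3.10.9. One model over the 4 groups was fitted with limma 3.58.1 (R 4.3.3, lmFit and trended eBayes), with Benjamini-Hochberg adjustment over all 16754, tested on simulated data. The limma p-values set each difference between groups against the spread of these arrays within groups, pooled over the 4 groups.

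Genes named were the 15 higher and 15 lower with the widest gap between the 3 arrays and the 11, the 6 each way per array with the widest gap to the other 13, and members of 42 lists (18 of cell types and 23 of processes, and PLAT, MMP7 and SLC39A2). The arrays, genes and lists were chosen with earlier results of these data known.

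Replicate numbers are shared between groups. For estrogen against control at day 13 the deviations of same-numbered arrays correlated at 0.132 to 0.283 in all 4 pairs, over the 0.1 taken to mean pairing; in the other 3 comparisons they ranged from -0.385 to 0.242. Alternatives were other pseudocounts, filters, scalings and gaps, 1 probe set per gene, array weights, the replicate number as a term, and arrays left out.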

Additional observations from a re-analysis of the deposited data

Results flagged for a closer look

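Among 126 checks of 63 named genes in the 2 groups of 4 arrays, and of the array measures, 26 found an array far from the other 3 of its group by Dixon's test, in which chance alone marks about 1 in 20 groups. The value is the gap to the nearest array divided by the group's range, given where it passed Dixon's limit for 4 samples. In 20 of the 26 the array was control day 13 replicate 1, whose named genes were chosen for such gaps, so these are descriptions. It was the highest of its group for PLAT (0.936), NPM3 (0.904), HSD11B1 (0.890), SDC2 (0.894), SDC1 (0.869), MAP2 (0.852), SLC34A2 (0.894), SPATS2L (0.883) and TAC3 (0.881). It was the lowest for DKK1 (0.848), SERPINB7 (0.918), PTN (0.941), CYP7A1 (0.949), SLC39A2 (0.844), MEP1B (0.914), SULT2A1 (0.886), SOD3 (0.918), GPX3 (0.980) and SERPINB2 (0.909), and for its median correlation (0.943).

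Other arrays of those groups were far from their mates in 6 checks. Estrogen day 13 replicate 3 was the lowest of its group for OVGP1 (0.905, at a level of 5.30), SULT2A1 (0.971, at 12.70) and HSD11B1 (0.938, by a gap of only 0.05). Estrogen day 13 replicate 4 was the lowest for LOC100158115 (0.943). Control day 13 replicate 2 was the lowest for LPAR3 (0.844), and control day 13 replicate 3 the highest for the GAPDH 3′ minus 5′ difference (0.831). No named gene passed the test of a day difference that depends on treatment (limma called 0 probe sets, with 595 at an unadjusted p under 0.05).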

How the results depend on the processing

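The 50 higher and 83 lower probe sets became 1209 and 940 when any distance without overlap was counted, 182 and 226 at a gap of 0.5, 6 and 7 at a gap of 2, and 23 and 26 with 1 probe set per gene; leaving out 1 array in turn gave 50 to 106 and 83 to 146. Other pseudocounts, filters and scalings kept both counts within 1.5 times. For the days in estrogen gilts limma called 0, but 3 with no filter, 168 with array weights, 221 without the 3 arrays, and 0 to 44 with each array left out. With the replicate block, run on all 14 arrays only, it called 0 in each of the 4 comparisons, as without it. For the days in control gilts leaving out 1 array gave 0 to 1, and for estrogen at day 13 and day 15 it gave 0 each. For the days averaged over treatments, an alternative added after the data were seen, the 1 call became 119 with array weights, 165 without the 3 arrays, 0 with the replicate block and 0 to 101 with 1 array left out. Counts against the own group fell to 608, 487 and 314 when differences of at least 2 were asked for, and for estrogen day 15 replicate 2 the 2111 became 3204 with no filter; with 1 mate left out they ran from 2636 to 2925, 3194 to 3269 and 2371 to 2668. All 30 genes named for the 3 arrays kept their direction in each of 570 values under 19 alternatives, and 550 moved by less than 1 SD of the 11 arrays. They were chosen for the widest gaps in these values, so a kept direction was nearly fixed by that choice. For 40 gene lists 760 of 840 medians kept their sign; progesterone targets ran from -1.03 to -0.52 and the plasminogen system from 0.55 to 1.54. The causes were not tested. A check of promoter sequences was not run, as no sequences were used here. Dim genes are limited by background, since no detection calls were used.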

Other observations

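Immune genes set the 3 arrays apart from their own groups in different directions, and those groups differ in day. Of 9 macrophage markers CD14 lay below all 11 arrays on each of the 3, and 0 lay above; of 33 interferon and antigen presentation genes and 6 lymphocyte markers 0 lay apart. Control day 13 replicate 1 was higher than its group mates for 5 of 9 macrophage markers and 11 of 33 interferon and antigen presentation genes, with 1 and 0 lower. C1QC, a chain of complement C1q made by macrophages, was 2.61 above its mates there, AIF1 2.12 and CIITA, the switch of class II antigen presentation, 2.05. Control day 15 replicate 3 was lower than its mates for 12 of 33 interferon and antigen presentation genes and higher for 0, with SLA-DRB1 at -2.70, CIITA at -2.03 and CXCL9, a chemokine induced by interferon gamma, at -4.97. Estrogen day 15 replicate 2 was lower for 5 of 33 and higher for 0, with CXCL9 at -2.17. Over all tested genes 10.5%, 8.35% and 6.19% were higher and 6.91%, 7.88% and 5.98% lower on the 3 arrays in the order of the report. In the 11 arrays, averaged over treatments, CXCL9 was 4.32, CIITA 2.15, AIF1 1.74 and C1QC 1.5 higher at day 15 than at day 13. The group mates of the day 13 array and of the day 15 arrays thus stood at different levels for these genes. Each array's mean difference from the 11 spanned -0.84 to 1.24 among the 11 for the macrophage list. For the interferon list it spanned -0.62 to 1.37. The 3 arrays lay inside both ranges, at 0.29, -0.02 and 0.48 for macrophages and 0.42, -0.38 and 0.46 for interferon. On that shared scale control day 13 replicate 1 and estrogen day 15 replicate 2 lay close together for the interferon list.

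A hormone, a channel and a zinc-binding protein gave further values. OXT, oxytocin, had 5.71, 9.72 and 7.31 on the 3 arrays, within the range of 4.88 to 11.95, and differed from the own group by -5.87, -0.31 and -1.16. SCNN1B, a sodium channel subunit, had 9.20, 5.20 and 4.91 against 5.32 to 9.44, so the day 15 arrays lay below the range and the day 13 array within it. MT1A differed from the own group by -3.83, -3.51 and -1.86. These genes were chosen after their values were seen.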
